A study of Oryza sativa with 8 samples.

Results

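A set of 6 genes, grouped as dehydrins and abscisic acid response genes, was followed across the 8 arrays. It held the dehydrin genes RAB21, RAB16C and RAB16D and the late embryogenesis abundant (LEA) gene LEA19. With them were the protein phosphatase gene OsPP2C45 and the abscisic acid hydroxylase gene ABA8OX1. Probe sets of all 6 were taken by symbol or synonym from the array's gene annotation. The 6 genes were chosen with earlier results of these data known, so their shares of calls are not those of an unselected set. These 6, of 17905 genes with a probe set of their own, had 8 probe sets of their own among 57258 analysed, and 8 of 8 had a mean signal of at least 200, as did 21444 probe sets in all. RAB21 and OsPP2C45 had 2 probe sets each, and the brighter one stood for the gene.

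Abscisic acid is the plant hormone of water deficit and of seed maturation. It binds receptors that then block type 2C protein phosphatases, which frees SnRK2 kinases to switch on bZIP transcription factors and, through them, genes such as the dehydrins. Dehydrins and other LEA proteins are hydrophilic proteins that build up in drying seeds and in stressed tissue, where they protect membranes and proteins. RAB21 and the RAB16 genes are responsive to abscisic acid in rice, and ABA 8′-hydroxylases break the hormone down. Ethylene, a gaseous hormone that acts through EIN2, is known to influence abscisic acid levels and responses in rice seedlings.

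The study compared rice seedlings of the mhz7 mutant (MHZ7 in the sample titles) with wild type (WT), in roots and in shoots, in ethylene and in air. Seedlings aged 3 days, grown in darkness, were exposed to ethylene at 10 ppm for 8 h or were left in air. The series description states that the water was lowered to below the seeds for the ethylene treatment and does not say so of the air controls. The groups were thus mhz7 and WT roots and shoots, each in ethylene and in air, with 1 array per group. No label or file used here gives the lesion of mhz7. MHZ7 is listed as a synonym of EIN2, whose signal in ethylene and air was 2462 and 2792 in mhz7 roots, 1574 and 1532 in mhz7 shoots, 1064 and 1649 in WT roots and 747 and 859 in WT shoots. A signal is the fluorescence of a probe set after each array was scaled to a common trimmed mean of 500, and values under a floor of 100 were raised to it before log2 differences were taken. With 1 array per condition, a difference between 2 arrays cannot be checked against replicates, and precision is limited by how few arrays there are. In such pairs a gene is called higher or lower where the signals differed at least 2-fold and the higher one was at least 200. This rule describes 2 arrays and is no test. Signals of different probe sets are not on a common scale, so levels are compared within a probe set only.

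The tissue labels matched their markers. Summed signals of 8 photosynthesis probe sets were 67121 to 92718 on shoot arrays and 602 to 2519 on root arrays, and those of 5 root transport genes were 1000 to 6277 on shoot arrays and 80167 to 125393 on root arrays. Some signal of the other tissue was present: 552 shoot-abundant probe sets stood on the root arrays at a median of 2.89% and 3.24% of their shoot signal in mhz7 (ethylene and air) and at 3.32% and 4.55% in WT. On the shoot arrays 215 root-abundant probe sets stood at 4.62% and 5.96% of their root signal in mhz7 (ethylene and air) and at 3.88% and 5.07% in WT. Seed tissue markers, 15 genes of storage proteins, an embryo LEA protein and amylases, summed to between 4575 and 6191, with 10 to 12 of the 15 under the floor on each array. Most of each sum was the globulin gene GLB1, at 3548 to 4895. The glutelin gene GLUA2 was at 385 to 664 on every array, and the amylase gene AMY1.1 read 621 in the WT shoot in air and was under the floor on the other 7 arrays. The storage protein genes GLUB4, GLUA3 and PROLM25 were under the floor on every array. The ratio of 3′ to 5′ GAPDH signal, which increases as RNA is degraded, was 8.70 and 6.79 on the mhz7 root arrays in ethylene and air, 9.08 and 5.92 in mhz7 shoots, 6.31 and 6.70 in WT roots and 5.92 and 4.71 in WT shoots. The ratios of the 2 actin controls were highest in the mhz7 shoot in ethylene (13.3 and 13.5) and lowest in the WT shoot in air (6.70 and 6.34). That of cyclophilin lay between 1.98 and 2.20 on all 8 arrays. In bulk tissue, fewer cells of a type and less RNA per cell cannot be told apart.

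RAB21 (LOC4350454), a dehydrin gene, was read mainly in shoots. Its signal in mhz7 was 608 in roots in ethylene, 424 in roots in air, 4825 in shoots in ethylene and 4601 in shoots in air. In WT it was 178 in roots in ethylene, 535 in roots in air, 3425 in shoots in ethylene and 5045 in shoots in air. The shoot and root arrays did not overlap, and the WT root in ethylene was the lowest of the 8. Its dimmer probe set gave the same order of the root arrays, with 279 and 179 in mhz7 roots in ethylene and air, against 60.7 and 204 in WT roots. In shoots that probe set read 1849 and 1907 in mhz7 and 1387 and 2023 in WT, in ethylene and air. This probe set carries the suffix for probes shared by several transcripts, so it may also read related dehydrin genes. RAB21 in roots stood at 12.6% and 9.22% of its shoot signal in mhz7 in ethylene and air, and at 5.21% and 10.6% in WT, above the median share of the shoot-abundant probe sets on each root array.

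RAB16C and RAB16D are its dehydrin neighbours. In the gene order of the ASM3414082v1 assembly, RAB16D, RAB16C, RAB16B and RAB21 follow each other with a long non-coding RNA gene and a pseudogene as the only annotated genes between RAB16C and RAB16B. RAB16C (LOC4350452) was dim throughout: in ethylene and air it gave 293 and 291 in mhz7 roots, 222 and 304 in mhz7 shoots, 155 and 351 in WT roots and 173 and 261 in WT shoots. Its 8 values span 2.27-fold, between the WT roots in ethylene and in air. RAB16D (LOC4350451) gave 499.5 and 363 in mhz7 roots in ethylene and air, 293 and 1032 in mhz7 shoots, 214 and 496 in WT roots and 224 and 172 in WT shoots. The mhz7 shoot in air was its highest array, and the WT shoot in air its lowest, 5.99-fold apart. RAB16D therefore had no fixed order of tissue: in air it was higher in shoot than root in mhz7 (2.84-fold) and lower in shoot than root in WT (2.88-fold).

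LEA19 (LOC4339480), listed also as LEA3-1 and encoding a group 3 LEA protein, was within 2-fold between tissues except in WT in ethylene. There the shoot was 2.65-fold the root. Its only probe set carries the suffix for probes shared by several transcripts, so it may also read related genes. Its signal was 746 and 595 in mhz7 roots in ethylene and air, 642 and 760 in mhz7 shoots, 291 and 719 in WT roots and 771 and 968 in WT shoots. The WT root in ethylene was again the lowest array, and the other 7 lay between 595 and 968.

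OsPP2C45 (LOC4337276) encodes a type 2C phosphatase of the family that holds the negative regulators of abscisic acid signalling. Whether this gene itself responds to abscisic acid was not tested. The bright probe set was nearly level, at 3131 and 3226 in mhz7 roots in ethylene and air, 3325 and 3154 in mhz7 shoots, 3925 and 3519 in WT roots and 3172 and 3241 in WT shoots. The dim probe set was not: it gave 183 and 131 in mhz7 roots, 363 and 1225 in mhz7 shoots, 324 and 203 in WT roots and 231 and 283 in WT shoots. Its mhz7 shoot in air stood apart, 3.38-fold above every other array. Both probe sets carry the suffix for alternative transcripts of 1 gene, and since they disagree, the level of OsPP2C45 is uncertain wherever the dim one moved.

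ABA8OX1 (LOC9269675) encodes an abscisic acid 8′-hydroxylase, the enzyme class that inactivates the hormone. Its signal was 1753 and 850 in mhz7 roots in ethylene and air, 406 and 281 in mhz7 shoots, 571 and 480 in WT roots and 424 and 336 in WT shoots. Every root array was above every shoot array, and ethylene was above air in 4 of 4 pairs of genotype and tissue. The mhz7 root in ethylene was the highest of the 8 arrays.

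**Figure D1:**
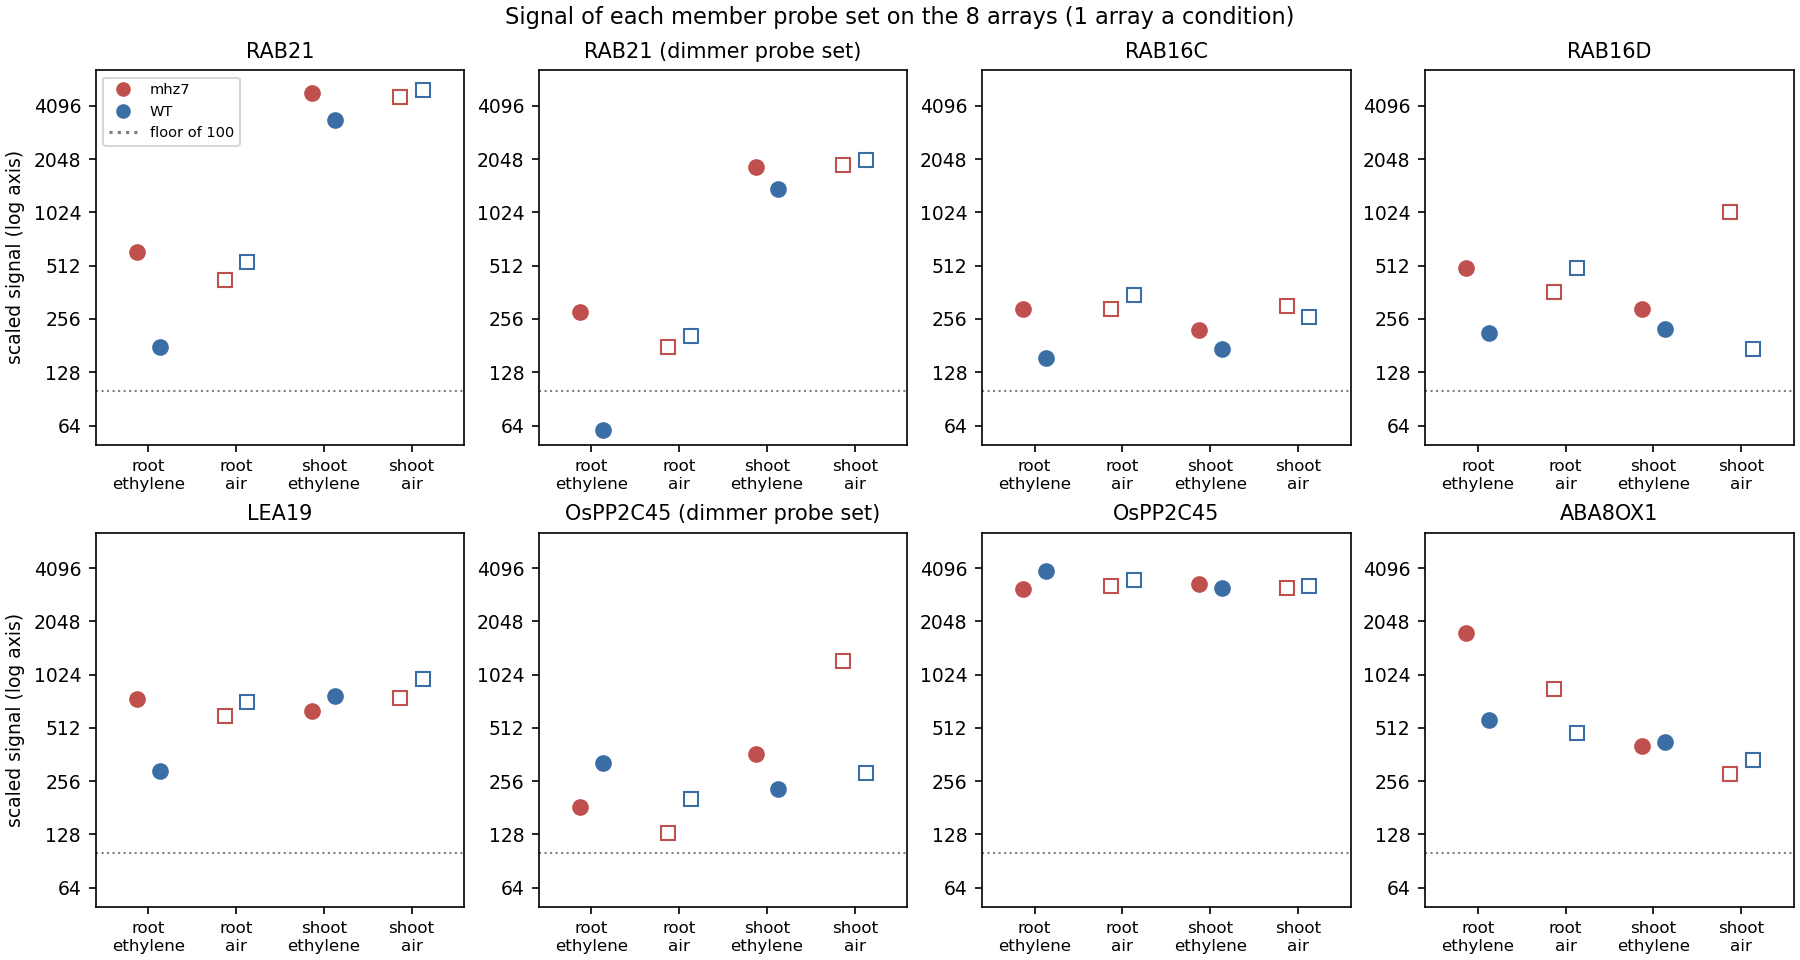
Scaled signal (log axis) of each of the 8 probe sets on the 8 arrays, with mhz7 in red left of WT in blue, filled circles for ethylene and open squares for air; each point is 1 array and the dotted line is the floor of 100. RAB21, RAB16C and LEA19 have their lowest point at the WT root in ethylene (178, 155 and 291), whereas RAB16D and the dimmer OsPP2C45 probe set have their highest point at the mhz7 shoot in air (1032 and 1225).

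Ethylene against air in WT roots asks how these genes differ with the hormone where the pathway is intact. All 3 dehydrin genes and LEA19 were lower in ethylene than in air, and OsPP2C45 and ABA8OX1 stayed within 2-fold. Calls on 4 of 6 genes, all lower, compare with 1.76% of all probe sets called in either direction and 0.965% called lower. RAB21 differed most, by -1.58 on the log2 scale (2.997-fold), followed by LEA19 at -1.31 (2.47-fold), RAB16D at -1.21 (2.31-fold) and RAB16C at -1.18 (2.27-fold). The dimmer RAB21 probe set was under the floor in ethylene and was at least 2.04-fold lower. OsPP2C45 differed by 0.16 and ABA8OX1 by 0.25 in the other direction. These 4 lower genes rest on 1 pair of arrays, and the WT root in ethylene was the lowest of the 4 root arrays for each of them. The other 3 root arrays lay within 1.43-fold of each other for RAB21, 1.21-fold for RAB16C, 1.38-fold for RAB16D and 1.25-fold for LEA19. The nearest of them was above the WT root in ethylene by 2.38-fold for RAB21, 1.88-fold for RAB16C, 1.69-fold for RAB16D and 2.05-fold for LEA19. Of all probe sets, 1.63% (350 of 21444) read at least 1.5-fold lower on that array than on every other root array. The summed shoot markers moved with the gas in WT roots, at 1034 in ethylene and 2519 in air. With the shoot share of each root array subtracted, the differences were -1.61 for RAB21, with the ethylene signal at the floor, -1.19 for RAB16C, -1.24 for RAB16D and -1.35 for LEA19.

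RAB16B, the fourth dehydrin gene of the cluster and not among the 6, had 38.8 in ethylene and 139 in air in WT roots, both too dim for a call. The nearest annotated gene beyond RAB21 with a measured probe set, LOC4350455, differed by -0.05 in the same pair.

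In mhz7 roots the dehydrin and LEA genes were not lower in ethylene. RAB21 differed by 0.52, RAB16C by 0.01, RAB16D by 0.46 and LEA19 by 0.33, none past 2-fold. ABA8OX1, at 1753 in ethylene against 850 in air, was higher by 1.04 (2.06-fold) and was the 1 gene of 6 called, beside 1.06% of all probe sets in either direction and 0.261% called higher. The ethylene change in mhz7 minus that in WT was 2.102 for RAB21, 1.67 for RAB16D, 1.63 for LEA19 and 1.19 for RAB16C in roots, and these 4 of 6 genes were past 2-fold, beside 2.12% of all probe sets in either direction and 0.699% upward. The same quantity was 0.79 for ABA8OX1 and -0.20 for OsPP2C45. It combines 4 single arrays and was not tested within roots. For the dehydrin and LEA genes it includes the WT root array in ethylene, which stood apart above, so it is not independent of the WT result.

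In WT shoots 0 of 6 were called, beside 1.65% of all probe sets. The WT shoot differences were -0.56 for RAB21, -0.59 for RAB16C, -0.33 for LEA19 and 0.38 for RAB16D. In mhz7 shoots RAB16D was lower in ethylene by -1.82 (3.53-fold), 1 gene of 6, beside 0.48% of all probe sets in either direction and 0.429% called lower. Root markers were lower in the same pair, with a sum of 1000 in ethylene and 3291 in air and calls on 4 of 5 genes (TIP2-1, NAS1, NAS2 and PIP2-4), and with the root share of each shoot array subtracted RAB16D differed by -1.91. The dim OsPP2C45 probe set was lower there by -1.76 (3.38-fold), while the bright one differed by 0.08. The mhz7 change minus the WT change in shoots was -2.20 for RAB16D, the 1 gene of 6 past 2-fold, beside 1.4% of all probe sets in either direction and 0.667% downward. It was 0.63 for RAB21 and at most 0.20 in size for the other 4 genes, by the probe sets that stood for them. The dim OsPP2C45 probe set gave -1.46, past 2-fold, so the value for that gene is uncertain.

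**Figure D2:**
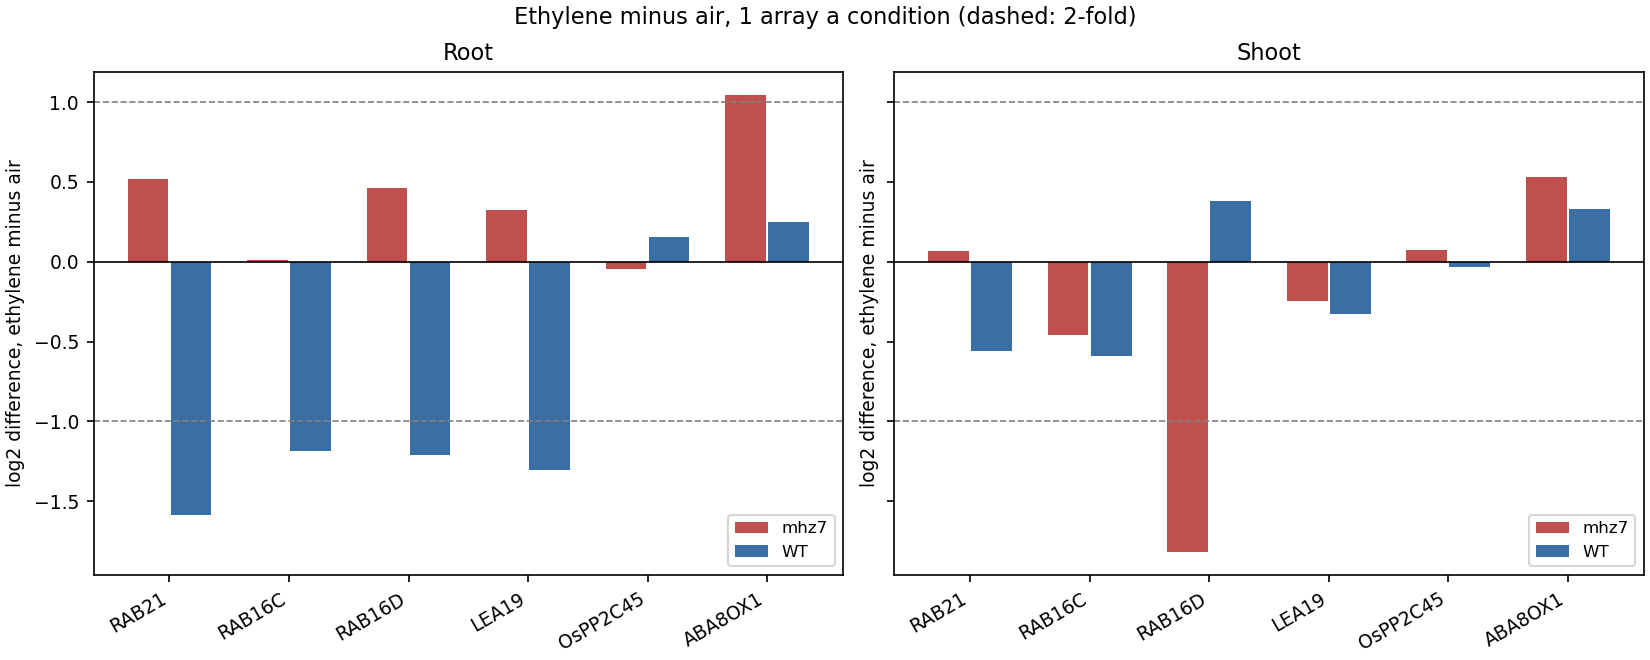
Log2 difference, ethylene minus air, for the 6 genes in roots (left panel) and shoots (right panel), with mhz7 in red left of WT in blue; each bar is 1 pair of arrays, there are no error bars, and dashed lines mark 2-fold. In WT roots RAB21, RAB16C, RAB16D and LEA19 lie between -1.58 and -1.18, against 0.01 to 0.52 in mhz7 roots.

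mhz7 against WT asks how the genes differ with the genotype in each tissue and gas. In roots in ethylene RAB21, LEA19, RAB16D and ABA8OX1 were higher in mhz7, 4 genes of 6, beside 6.98% of all probe sets in either direction and 3.05% called higher. RAB21 stood at 608 in mhz7 against 178 in WT (3.40-fold), LEA19 at 746 against 291 (2.57-fold), RAB16D at 499.5 against 214 (2.33-fold) and ABA8OX1 at 1753 against 571 (3.07-fold). RAB16C, at 293 against 155, missed the rule by a small margin (0.92). This comparison uses the same WT root array in ethylene as the comparison of gases above, so for the dehydrin and LEA genes the pair of results is not independent. The dimmer RAB21 probe set was at least 2.79-fold higher in mhz7. In roots in air 0 of 6 genes were called, beside 3.21% of all probe sets, and the dehydrin and LEA genes were slightly lower in mhz7, by -0.27 to -0.45. ABA8OX1 was 1.77-fold higher there, at 850 in mhz7 against 480 in WT.

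In shoots in air RAB16D was the 1 gene of 6 called, at 1032 in mhz7 against 172 in WT (5.99-fold higher), beside 2.67% of all probe sets in either direction and 1.61% called higher. The dim OsPP2C45 probe set was 4.33-fold higher in mhz7 and the bright one differed by -0.04. Both results rest on the mhz7 shoot array in air, which also serves the comparison of gases in mhz7 shoots. On that array 16 of 21444 probe sets (0.0746%) read at least 2-fold above every other array. RAB16D was among them at 2.07-fold and the dim OsPP2C45 probe set led them at 3.38-fold. In shoots in ethylene 0 of 6 genes were called, beside 4.61% of all probe sets, and the differences lay between -0.27 for LEA19 and 0.49 for RAB21.

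**Figure D3:**
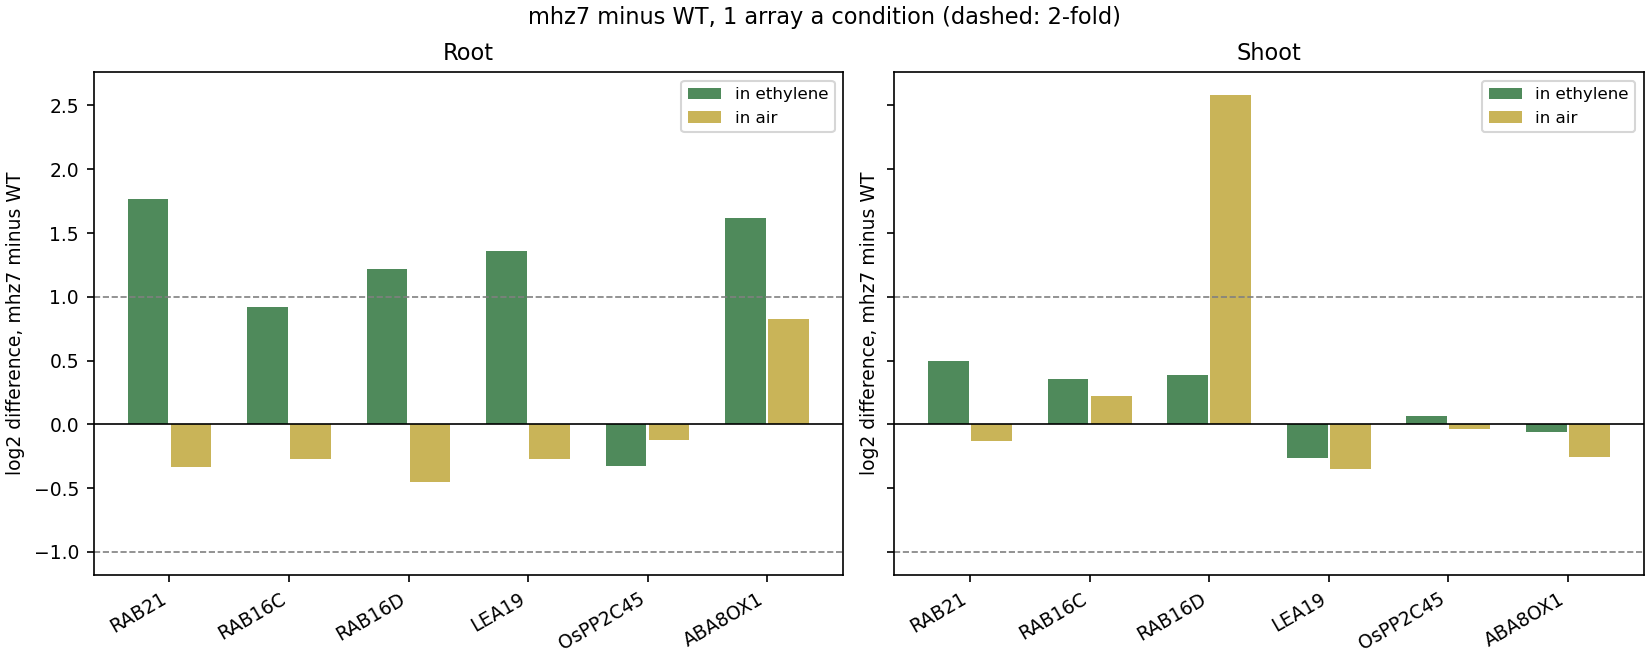
Log2 difference, mhz7 minus WT, for the 6 genes in roots (left panel) and shoots (right panel), in ethylene (green) and in air (yellow); each bar is 1 pair of arrays, there are no error bars, and dashed lines mark 2-fold. In roots RAB21, RAB16C, RAB16D and LEA19 lie above 0 in ethylene (0.92 to 1.77) and below 0 in air (-0.45 to -0.27), and in shoots RAB16D in air (2.58) is the tallest bar.

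The 8 arrays form 4 pairs for each factor, and limma's moderated test over those pairs, with Benjamini-Hochberg adjustment over 21444 probe sets, asks whether a gene differed alike in all conditions. For ethylene against air it called 0 of 6 genes and 0% of all probe sets. At an unadjusted p of 0.05 it held 1704 probe sets (7.95%), ABA8OX1 and RAB16C among them. ABA8OX1 averaged 0.54 higher in ethylene (SE 0.139), higher in 4 of 4 pairs, with an adjusted p of 0.572 from limma. RAB16C averaged -0.56 (SE 0.187), lower in 3 of 4 pairs, with an adjusted p of 0.603 from limma. RAB21, RAB16D and LEA19 averaged -0.39, -0.55 and -0.39, and without the WT root pair the RAB21 mean was 0.01. For mhz7 against WT the fit called 0 of 6 genes and 1.45% of all probe sets, and at an unadjusted p of 0.05 it held 0 of 6 and 21.9%. The largest mean was 0.93 for RAB16D (SE 0.493), higher in 3 of 4 pairs, with an adjusted p of 0.334 from limma. The genotype by gas interaction called 0 of 6 and 0% of all, and at an unadjusted p of 0.05 it held 2 of 6 and 1.91%. RAB21 had an interaction of 1.36 (SE 0.433) with an unadjusted p of 0.0240 and an adjusted p of 0.9999 from limma, and that of RAB16C was 0.66 (SE 0.259).

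Shoot against root called 2 of 6 genes, beside 67.4% of all probe sets (25.9% higher and 41.5% lower in shoots), so a call here was common. RAB21 was 3.48 higher in shoots on the log2 scale (SE 0.217, adjusted p = 0.000109 from limma, 4 of 4 pairs). Its shoot signal was 7.94-fold and 10.9-fold the root signal in mhz7 in ethylene and air, and 19.2-fold and 9.43-fold in WT. ABA8OX1 was lower in shoots by -1.16 (SE 0.318, adjusted p = 0.0229 from limma, 4 of 4 pairs). The ABA8OX1 call was lost without the mhz7 air pair (-1.02, adjusted p = 0.0827) and without the mhz7 ethylene pair (-0.85, adjusted p = 0.0521), as limma gave them. RAB16C (-0.15), RAB16D (-0.18), LEA19 (0.49) and OsPP2C45 (-0.09) did not pass. By the probe sets that stood for the genes, RAB16D differed between pairs more than any other of the 6. Its SD was 1.299 over the 4 tissue differences, against 1.574 for the dim OsPP2C45 probe set.

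Over the 4 root arrays the log2 signals of RAB21 correlated with those of LEA19 at r = 0.998, with RAB16D at 0.988 and with RAB16C at 0.947. These are descriptions of 4 points, 1 of which lies apart and is the same array for each gene. Over all 8 arrays RAB21 correlated with LEA19 at 0.709, with RAB16C at 0.06 and with RAB16D at 0.02.

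The wider abscisic acid list held 32 genes by symbol, of which 28 had a probe set and 24 a mean signal of at least 200, the 6 members included except OsPP2C45. In WT roots 0 of 24 were higher and 5 lower in ethylene, with a list median of -0.06 against 0.03 over all probe sets. The fifth gene was HOX22, a homeodomain leucine zipper transcription factor gene induced by abscisic acid, at 383 in ethylene against 844 in air (-1.14). In mhz7 roots HOX22 gave 597 in ethylene and 876 in air (-0.55), not past 2-fold. The 10 SnRK2 kinase genes SAPK1 to SAPK10 and the bZIP factor genes BZIP23 and TRAB1 held 0 calls in the 4 comparisons of gas. So did PYL5 and ZEP, the only receptor gene and the only synthesis gene measured. Among these genes SAPK9 had the largest mean over the 4 pairs, 0.41 higher in ethylene (SE 0.058, adjusted p = 0.402 from limma). In the remaining comparisons of gas the list had 0 calls in WT shoots, ABA8OX1 alone (higher) in mhz7 roots and RAB16D alone (lower) in mhz7 shoots. ABA8OX2, a second hydroxylase gene, gave 1166 and 1111 in mhz7 roots in ethylene and air, against 622 and 714 in WT roots, and was within 2-fold in every comparison of gas or genotype.

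Among the 6 measured LEA and dehydrin genes, each by its brightest probe set, 4 were lower in WT roots in ethylene. DHN1 and RAB16B were not called on that basis. A second DHN1 probe set was past the 2-fold rule there, at 255 in ethylene against 589 in air. In mhz7 roots it was within 2-fold. DHN1, an acidic dehydrin gene, gave 3644 and 3648 in mhz7 roots in ethylene and air, 1979 and 1967 in mhz7 shoots, 3677 and 4802 in WT roots and 4442 and 3845 in WT shoots on its brightest probe set. A second DHN1 probe set went the other way between genotypes, with 941 and 1263 in the roots of mhz7 and 382 and 408 in its shoots, against 255 and 589 in WT roots and 99.7 and 185 in WT shoots. Over the 4 pairs the second was 1.52 higher in mhz7 (SE 0.181, adjusted p = 0.0439 from limma), and the brightest was not called (-0.64, adjusted p = 0.169 from limma). Direction for DHN1 is therefore uncertain. In shoots in ethylene RAB16B was higher in mhz7, at 516 against 195 in WT (2.64-fold), and DHN1 (brightest probe set) and SAPK3 were lower, at 1979 against 4442 and at 1209 against 2448. With the 4 genes higher in roots in ethylene, RAB16D alone (higher) in shoots in air and 0 in roots in air, these are the list's calls between genotypes. SAPK3 was the 1 gene of the 24 past the genotype fit (-0.73, SE 0.0957, adjusted p = 0.0458 from limma, lower in mhz7 in 4 of 4 pairs).

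Shoot against root passed for 14 of the 24, with 6 higher and 8 lower in shoots, a share of calls below that of all probe sets. Higher in shoots were RAB21, RAB16B (1.49), SALT (0.76), PYL5 (0.52) and the kinase genes SAPK10 (2.18) and SAPK5 (1.01). Lower in shoots were ABA8OX1, ABA8OX2 (-0.48), HOX22 (-2.15), TRAB1 (-0.40) and the kinase genes SAPK1, SAPK3, SAPK7 and SAPK8 (-0.88 to -0.27). RAB21 and RAB16B, 2 dehydrin genes of the cluster, were thus shoot-abundant, and RAB16C and RAB16D were not called. The list median was -0.18 for shoot minus root, against -0.15 over all probe sets. For mhz7 minus WT it was 0.06 in roots in ethylene and -0.20 in roots in air, against 0 and 0.02 over all probe sets.

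**Figure D4:**
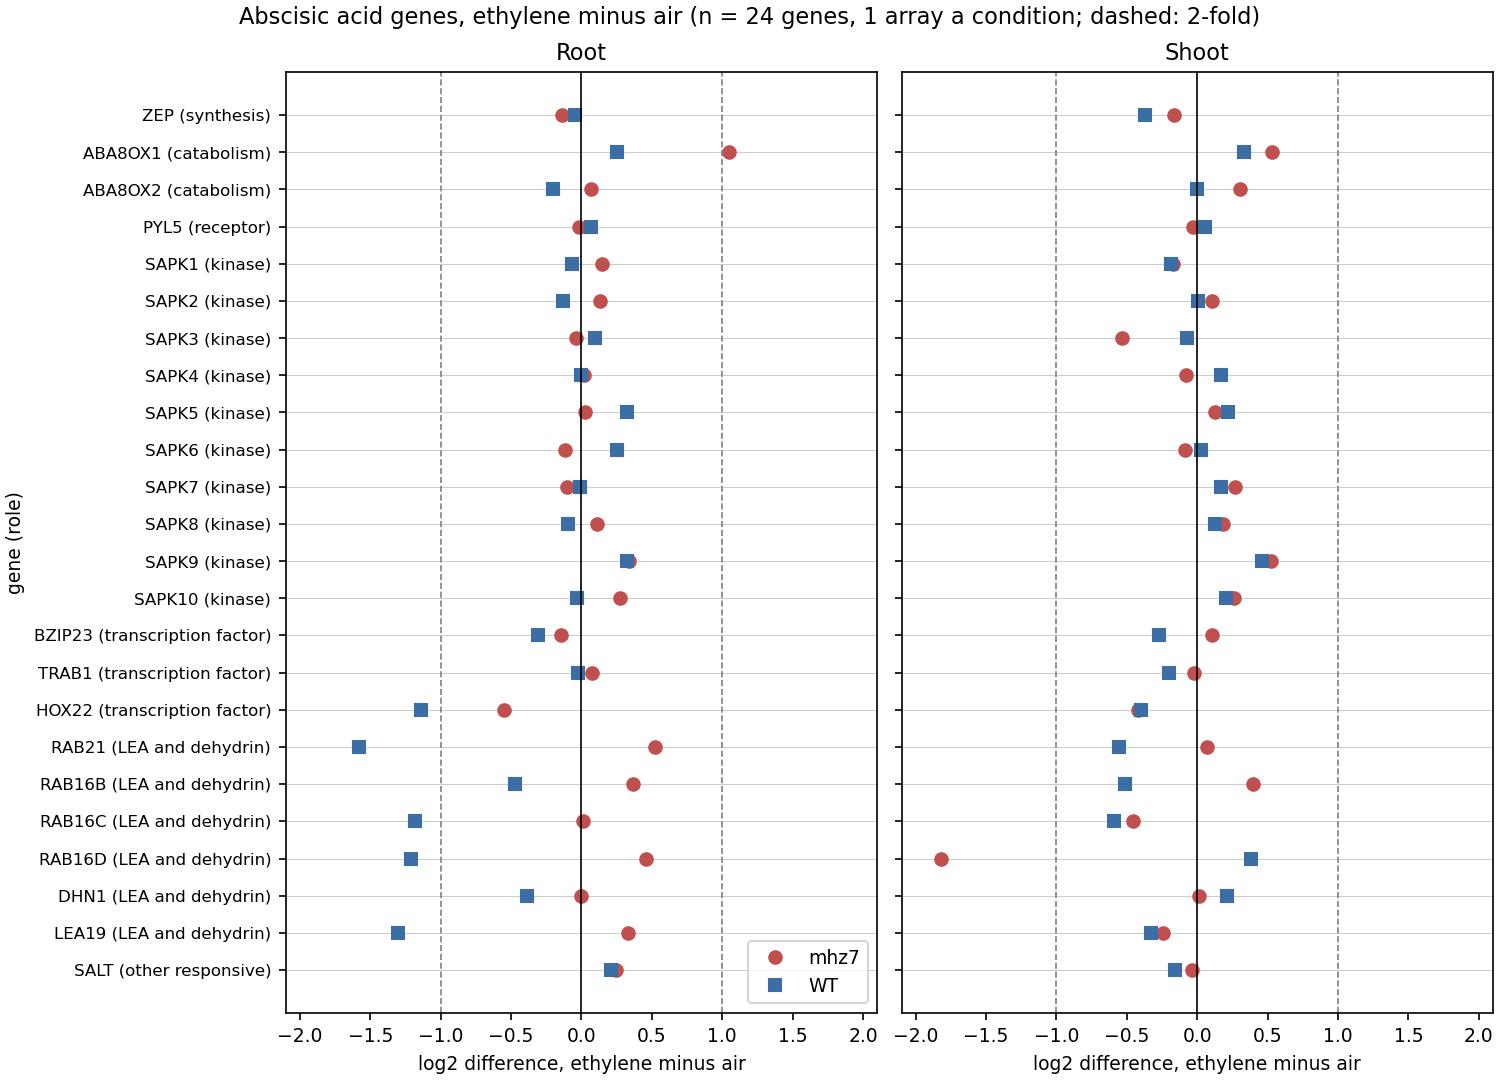
Log2 difference, ethylene minus air, for the 24 measured genes of the abscisic acid list in roots (left panel) and shoots (right panel), ordered by role; red circles are mhz7 and blue squares WT, each point is 1 pair of arrays, and dashed lines mark 2-fold. In WT roots 5 genes lie left of -1 (HOX22, RAB21, RAB16C, RAB16D and LEA19), and the kinase genes lie within 2-fold in both genotypes.

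OsPP2C45 was set among the type 2C phosphatase genes, 60 by symbol, 55 with a probe set and 47 measured, itself included. Each gene was read by its brightest probe set, so the calls of the dim OsPP2C45 probe set in mhz7 shoots are not counted here. With ethylene 0 of 47 were called in each of the 4 pairs, and the median in WT roots was 0.06, against 0.03 over all probe sets. OsPP2C32 was higher in mhz7 roots, at 1125 in mhz7 against 474 in WT in ethylene and at 886 against 352 in air, and OsPP2C62 was lower in roots in ethylene, at 1062 in mhz7 against 2567 in WT. In shoots 0 were called between genotypes. The genotype fit over 4 pairs called OsPP2C28 (-0.46, SE 0.0619, adjusted p = 0.0474) and OsPP2C39 (-0.71, SE 0.0937, adjusted p = 0.0458), both lower in mhz7, by limma. Shoot against root called 12 higher and 21 lower in shoots of the 47, a share near the 67.4% of all probe sets, and OsPP2C45 was not among them.

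The genes with a symbol whose log2 signals ran most like those of each member were found among 2039 genes by Pearson's r over the 8 arrays. For RAB21 they were FALDH (0.991), OsSUS1 (0.988) and OsRac4 (0.988), all of them following the split between shoot and root. For RAB16C they were ADC2 (0.842), ILL3 (0.835) and G1L1 (0.832), and for RAB16D CYP76M6 (0.766), OsPP2C02 (0.761) and OST4B (0.712). LEA19 ran most like SCAMP5 (0.919), a gene listed as cellulase (0.875) and MSP1 (0.863). OsPP2C45 ran most like ta5 (0.973), OsSWEET1a (0.949) and OsZIP3 (0.933), and ABA8OX1 most like OsSUT4 (0.983), OsPL10b (0.973) and CARA (0.963). Some of the genes named varied little over the 8 arrays, with log2 ranges of 0.28 for CYP76M6, 0.32 for CARA and 0.38 for OsPL10b. Others spanned more, up to 4.72 for ADC2. OsPP2C45 itself spanned 1.25-fold. The points share tissue, and these correlations are the highest of many values over 8 arrays, given as a description.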

How the data were processed

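RNA from the 8 samples was hybridised to Affymetrix rice arrays, per the labels' protocols. The deposited files hold linear intensity, 1 value for each probe set of an array, which the authors made with MAS5, per the submitters' processing notes. The sources used here do not give its version, scaling target or detection calls. The deposited medians were 42.8 to 44.5 and the trimmed means 238.3 to 250.3.

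Of 57381 probe sets, 123 controls were set aside. Each array was multiplied by 2.00 to 2.10 to a 2% trimmed mean of 500, floored at 100 (51.5 to 53.1% of probe sets) and turned into log2 values. In the annotation 22436 probe sets had 1 gene, 95 had several and 34727 had none. Symbols came from the ASM3414082v1 gene table, used for names and neighbours only. Of several probe sets of a gene, the one with the highest mean stood for it.

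Fits used limma 3.58.1 in R 4.3.3 with the pair of arrays as a block (3 residual degrees of freedom), or tissue, genotype and gas for the interaction, with Benjamini-Hochberg adjustment at 0.05. The fits were also run on simulated data with known changes, and the outcome is not given here. Python 3.11.15 was used for the rest. A pair consists of the 2 arrays that share the other factors, since the labels give no replicate numbers.

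Alternatives were quantile and median scaling, no floor or a floor of 200, other fold limits (1.5 and 3), all probe sets of the 6 genes, mean filters, no block, and each pair left out. A subtraction of the other tissue's share was chosen after seeing the data. The 6 genes and all lists were chosen with earlier results of these data known. Named genes are the 6, list genes past a threshold in any comparison, and the 3 symbols most correlated with each member. DHN1's second and dimmest probe sets, ABA8OX2, RAB16B in roots and LOC4350455 were named after their values were seen. So were single tissue markers and the lists' uncalled role groups. Related dehydrin and LEA genes may cross-hybridise.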

Additional observations from a re-analysis of the deposited data

Results flagged for a closer look

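For 4 genes the ethylene differences in roots ran in opposite directions in the 2 genotypes, and within roots this was not tested, since each value is 1 pair of arrays. On the log2 scale, ethylene minus air was 0.52 in mhz7 and -1.58 in WT for RAB21. It was 0.00891 in mhz7 and -1.18 in WT for RAB16C, a value in mhz7 so close to 0 that its sign carries no weight. It was 0.46 in mhz7 and -1.21 in WT for RAB16D, and 0.33 in mhz7 and -1.31 in WT for LEA19. RAB16D also changed direction between genotypes in shoots, at -1.82 in mhz7 and 0.38 in WT. Within a genotype it changed direction between tissues, at -1.82 in shoot and 0.46 in root in mhz7, and at 0.38 in shoot and -1.21 in root in WT. These shoot and root differences of RAB16D were not tested either. In the interaction fit over both tissues, limma gave RAB16D -0.26 (SE 0.992, adjusted p = 0.9999).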

How the results depend on the processing

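Of 11 single-gene differences called for gas or genotype, 10 were called under all 5 other scaling, floor and tissue-share settings and 0 changed sign. The exception was RAB16C in WT roots, at -0.81 with a floor of 200, which the floor itself limits. With a 3-fold limit the number of the 6 genes called was 0 in WT roots and 0 in mhz7 roots (ethylene against air) and 2 in roots in ethylene (mhz7 against WT), and with a 1.5-fold limit 1 in WT shoots and 1 in roots in air. Counting all probe sets gave 2 in mhz7 shoots (ethylene against air) and 2 in shoots in air (mhz7 against WT). The tissue fit called 1 without the filter on mean signal. There ABA8OX1 lost its call (adjusted p = 0.171 by limma), and the cause was not tested. Leaving out 1 pair, the fits called 1 to 2 genes for tissue and 0 to 0 for gas and genotype, and means that changed sign ranged over -0.691 to 0.00952 for RAB21 (gas), -0.296 to 0.274 for LEA19 (genotype) and -0.742 to 0.268 for RAB16D (tissue). Without the pair as a replicate block, an additive limma fit called 0, 0 and 2 genes for gas, genotype and tissue, and no call changed (RAB21 tissue 3.48, adjusted p = 0.000162). Dim signals limit RAB16C, RAB16B and the second probe sets, and 1 array per condition limits every pair.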

Other observations

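Of the 16 probe sets that read at least 2-fold higher in the mhz7 shoot in air than on any other array, 9 had a gene listed, 2 of them RAB16D and OsPP2C45. The brightest was that of LOC4344615, at 6048 against at most 2379 elsewhere, and the probe set of LOC4344618 read 2389 against at most 779. These genes were singled out after their values were seen.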
